A study of Mus musculus with 4 samples.

Results

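The genes described here carry high-energy phosphate through the heart muscle cell: the 4 creatine kinase genes Ckm, Ckb, Ckmt1 and Ckmt2, the creatine transporter gene Slc6a8 and the adenylate kinase gene Ak1. They were taken by symbol, as the 6 rows of these names among the 29595 rows of the deposited read table, and all 6 are among the 16128 rows with enough reads to be tested. RNA came from the right ventricle of 4 adult mice on a mixed C57BL/6 background, 2 labelled Ezh2-deficient and 2 labelled wild type, with no treatment. Ezh2 is the histone H3 methyltransferase of a gene-silencing complex, Polycomb repressive complex 2 (PRC2). The labels name neither the deleted part of Ezh2, nor the cells or promoter in which a deletion was made, nor age beyond adult. Each heart keeps its labelled number below: the mutants are 1 and 3 and the wild types 1 and 2.

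Creatine kinases move phosphate between ATP and creatine, so that phosphocreatine can buffer ATP and carry energy from mitochondria to the myofibrils and ion pumps. The muscle and brain forms, M and B, work in the cytosol as dimers. The sarcomeric and the ubiquitous mitochondrial forms sit in the intermembrane space beside the adenine nucleotide translocator. Creatine is not made in heart muscle cells in amounts that meet their need, and is taken up through Slc6a8. Adenylate kinase 1 makes ATP and AMP from ADP in the cytosol and so both recovers energy and produces the AMP that signals its lack. A shift from the M to the B form and a fall in creatine uptake are familiar features of failing and overloaded hearts.

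None of the 6 genes differed between mutant and wild-type ventricles beyond the spread between hearts. In edgeR's quasi-likelihood test on the read counts, 0 of 6 had a Benjamini-Hochberg adjusted p under 0.05, where 0.130% of all tested rows did. At an unadjusted p under 0.05 the count was also 0 of 6, where 10.9% of tested rows passed, and DESeq2 called 0 of 6. The levels of the groups overlapped for all 6 genes, while 44.8% of tested rows had groups that did not overlap. The median log2 fold change, mutant minus wild type, was 0.22 for the 6 genes and 0.00 for all tested rows, with 4 genes above 0 (Ckm, Ckmt1, Ckmt2 and Slc6a8) and 2 below (Ckb and Ak1). Leaving out 1 heart moved the median of the 6 genes to 0.45 (without wild type 1), 0.15 (without mutant 1), 0.00466 (without mutant 3) or -0.10 (without wild type 2). Scaling by total reads alone moved the median of all rows to -0.28 and that of the 6 genes to -0.07, so the signs below are relative to the TMM scaling (a correction for library makeup).

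The 95% intervals of the fold changes say how large a difference these hearts could still hide. For 5 of the 6 genes they lie inside a 2-fold change in either direction, and for Ckmt1, which has few reads, they do not. The fold change of Ckm could lie between 0.723 and 1.93, that of Ckmt2 between 0.762 and 1.77, and that of Slc6a8 between 0.807 and 1.70. That of Ckb could lie between 0.597 and 1.46, and that of Ak1 between 0.668 and 1.39. Changes within these intervals were therefore not excluded, and the lack of a call is not the same as a lack of change.

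**Figure D1:**
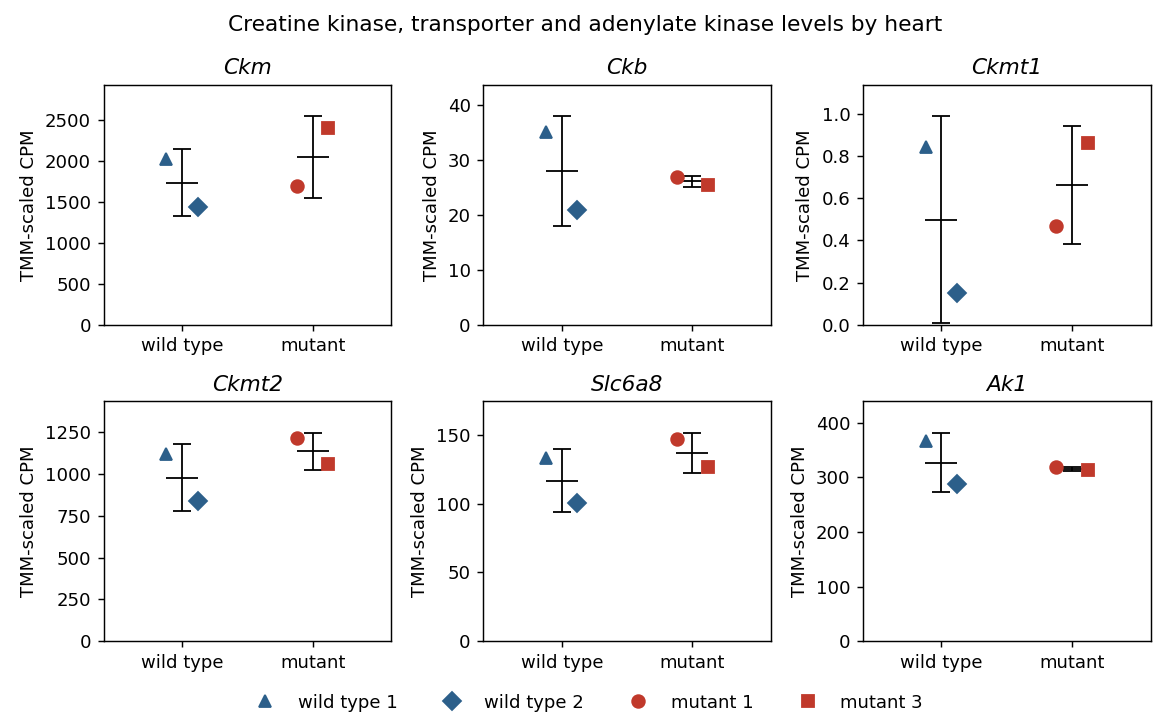
TMM-scaled CPM (linear axis from 0) of the 6 genes in each heart, with horizontal bars for the group mean and vertical bars for the SD (n = 2 per group). In every panel the points of the groups overlap and wild type 2 is the lowest heart.

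The libraries held 18177642 to 23853394 reads, and mitochondrially encoded rows took 34.7% to 47.3% of them. Ezh2 itself had 73 and 70 reads in mutant hearts and 77 and 67 in wild-type hearts, so its row does not check the labels, since transcripts that lack a deleted part can still be counted. Reads of the Y-linked gene Ddx3y numbered 754 and 659 for the mutant hearts and 2 and 2 for the wild-type hearts, so sex and genotype cannot be told apart in any comparison here. The cardiomyocyte markers were abundant in all 4 hearts, with 10 of 10 detected and a summed level of 45037 to 59906 CPM. The 6 genes together held 0.335% and 0.324% of the reads of mutant 1 and mutant 3, and 0.411% and 0.294% of those of wild type 1 and wild type 2. Nuclease treatment of the libraries trims abundant transcripts, so a fold change of Ckm or Ckmt2 may be compressed.

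Sequence matters here in 2 ways: similar transcripts could share reads, and promoters of the isoforms differ in CpG content, a feature by which PRC2 targets are often described. Between the reference transcripts (the one numbered first for each gene) of GENCODE M21, no stretch of 50 bases was shared by any pair of the 4 creatine kinase genes. The longest identical run of the cytosolic pair was 20 bases, from base 852 of the Ckm transcript, and that of the mitochondrial pair was 39 bases, from base 1132 of the Ckmt1 transcript. They are shown as the stretches where the isoforms are hardest to tell apart; the read length and the handling of reads with several matches were not given in the sources used here.
Ckm and Ckb: ggcacaggtggcgtggacac
Ckmt1 and Ckmt2: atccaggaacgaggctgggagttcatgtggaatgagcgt

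The promoters of the muscle-type and the brain-type gene differ in CpG content, and the 3 below are shown because their genes are the 3 creatine kinase forms with ample reads in this ventricle. They are the 250 bases before the RefSeq start, 5′ to 3′ on the gene's strand, on GRCm38.p6, a later build than the mm9 of the read table, with each CpG in capitals. The table of promoters matched 5 of the 6 genes, all but Slc6a8.
Ckm, chr7:19410844-19411093, plus strand: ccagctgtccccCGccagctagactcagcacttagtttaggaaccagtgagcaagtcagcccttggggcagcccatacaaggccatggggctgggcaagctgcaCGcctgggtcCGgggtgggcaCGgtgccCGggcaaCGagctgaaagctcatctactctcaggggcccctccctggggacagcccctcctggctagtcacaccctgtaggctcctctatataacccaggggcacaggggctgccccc
Ckb, chr12:111672339-111672588, minus strand: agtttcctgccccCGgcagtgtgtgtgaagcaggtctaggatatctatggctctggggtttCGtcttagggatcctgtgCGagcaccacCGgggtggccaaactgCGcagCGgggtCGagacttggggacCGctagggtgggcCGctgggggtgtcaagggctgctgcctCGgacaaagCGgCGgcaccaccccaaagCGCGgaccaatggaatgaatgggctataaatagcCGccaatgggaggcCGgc
Ckmt2, chr13:91876886-91877135, minus strand: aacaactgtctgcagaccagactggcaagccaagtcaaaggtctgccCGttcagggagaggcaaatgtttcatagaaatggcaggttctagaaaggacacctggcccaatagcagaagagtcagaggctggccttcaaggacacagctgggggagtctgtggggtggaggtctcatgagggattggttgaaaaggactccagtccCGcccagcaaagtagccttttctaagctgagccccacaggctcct

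The Ckb window held 16 CpGs, the Ckm window 6 and the Ckmt2 window 2, where the median of 32851 promoter windows was 6 and the upper quartile 16. The E-box CANNTG, the short site read by many muscle and non-muscle factors, which reads the same on both strands, was found 4 times in the Ckmt2 window, 1 time in that of Ckm and not in that of Ckb. At least 1 such match is held by 66.2% of all windows and at least 4 by 3.84%. These are matches of letters and not sites of binding.

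Levels of different genes can be set side by side only per length, here as TMM-scaled CPM per kb of the reference transcript, and only roughly, given the nuclease step. On that scale Ckm stood highest, at 1168 to 1944 per kb over the 4 hearts, followed by Ckmt2 at 563 to 817 and Ak1 at 142 to 180. Slc6a8 followed at 25.3 to 37.2 and Ckb at 14.1 to 23.7, with no overlap of hearts between any of these neighbours in the order. Ckmt1, the ubiquitous mitochondrial form, was close to silent, at 0.0932 to 0.532 per kb. The order was the same in all 4 hearts: the sarcomeric pair of Ckm and Ckmt2 made up nearly all creatine kinase reads of this ventricle.

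**Figure D2:**
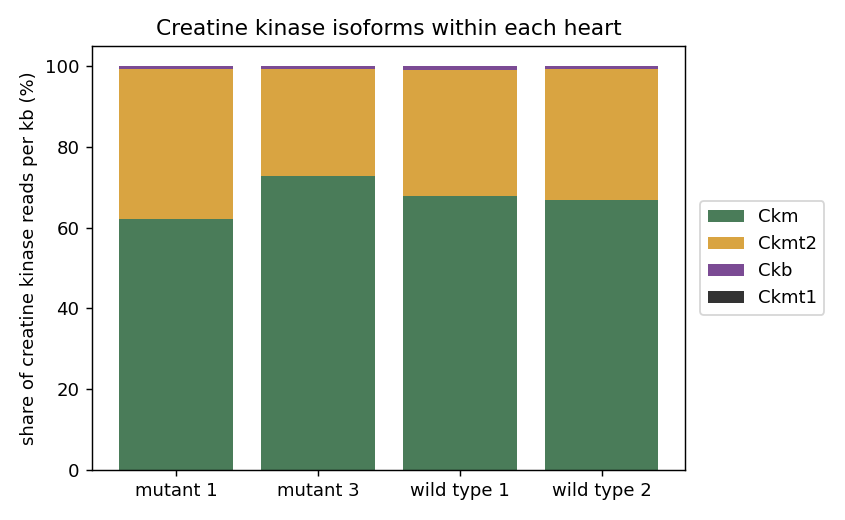
Share of each creatine kinase gene in the TMM-scaled reads per kb of the 4 creatine kinase genes (percent, stacked bars, 1 bar per heart). Ckm takes 62.1% (mutant 1) to 72.7% (mutant 3), Ckmt2 takes most of the rest, and Ckb stays under 1% in every heart.

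Uptake and synthesis of creatine come first. Slc6a8 (chromosome X, 70918489 to 70927839 on mm9) had 147 and 126 CPM in mutant 1 and mutant 3, and 133 and 100.5 CPM in wild type 1 and wild type 2. Mutant 1 was the highest and wild type 2 the lowest heart, and mutant 3 lay between the wild types. The means were 137 ± 14.7 CPM in mutant hearts and 117 ± 23.0 in the wild types (SD, n = 2), a log2 fold change of 0.23 ± 0.23 (SE) with an edgeR adjusted p of 0.753. Without wild type 1 the log2 fold change was 0.45, the nearest this gene came to a call (adjusted p = 0.0873; its alternatives ran from 0.0873 to 1.00), and without wild type 2 it was 0.04. The gene is X-linked and the groups differ in sex-linked transcripts, so a part of sex in these values cannot be told apart from genotype. A further row on the same strand, named CRT, lies within its span and may hold the same reads.

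The creatine synthesis genes were low in the ventricle. Gatm, the amidinotransferase of the opening step, was at 6.54 ± 1.44 CPM in mutant hearts and 7.72 ± 0.103 in the wild types (adjusted p = 0.794). Gamt, the methyltransferase that completes creatine, was at 2.61 ± 0.325 against 2.81 ± 1.63 CPM (adjusted p = 0.947). Neither differed beyond the spread between hearts.

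Ckmt2, the sarcomeric mitochondrial form (chromosome 13, 91992992 to 92016490), had 1214 and 1057 CPM in mutant 1 and mutant 3, and 1118 and 836 CPM in wild type 1 and wild type 2. As for Slc6a8, mutant 1 was highest, wild type 2 lowest, and mutant 3 fell between the wild types. The means were 1135 ± 111 CPM in mutant hearts and 977 ± 199.6 in the wild types (SD, n = 2), with a log2 fold change of 0.22 ± 0.26 (SE) and an edgeR adjusted p of 0.801. Without wild type 1 the log2 fold change was 0.44 and without wild type 2 it was 0.02. AK018965, a row on the opposite strand inside the span, had 239 to 408 reads, few beside the 16621 to 26009 of Ckmt2.

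Ckmt1 (chromosome 2, 121183536 to 121189473), the form of brain, gut and other non-muscle tissues, had 10 and 17 reads in mutant hearts and 19 and 3 in the wild types. The highest and the lowest count were both from wild-type hearts. The log2 fold change was 0.38 ± 0.83 (SE; adjusted p = 0.899), and its 95% interval ran from -1.55 to 2.31. It turned to -0.36 without wild type 2, to -0.05 without mutant 3, and was 2.09 without wild type 1 (adjusted p = 0.193; its alternatives ran from 0.193 to 1.00). At this depth neither a rise from near silence nor a loss of the gene could be told.

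Ckm, the muscle cytosolic form bound to the M-band of the sarcomere (chromosome 7, 19996443 to 20006932), differed as much between hearts of 1 group as between groups. It had 1691 and 2400.2 CPM in mutant 1 and mutant 3, and 2022 and 1442 CPM in wild type 1 and wild type 2, so that mutants and wild types alternated in the order of hearts. The ratio of the higher to the lower heart was 1.42 in mutant hearts and 1.40 in the wild types. The means were 2046 ± 501 CPM in mutant hearts and 1732 ± 409.9 in the wild types (SD, n = 2), a log2 fold change of 0.24 ± 0.31 (SE) with an edgeR adjusted p of 0.812. That value was 0.51 without mutant 1 and 0.51 without wild type 1, and 0.01 without mutant 3 and 0.01 without wild type 2. Single hearts therefore set its size.

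Ckm is also a major transcript of skeletal muscle, and fast skeletal fibre markers were unequal between the hearts. All 10 were read, with a summed level of 344 and 76.4 CPM in mutant 1 and mutant 3 and of 50.3 and 41.4 in the wild types. Mutant 1, the heart with the highest marker level, had less Ckm than mutant 3 and wild type 1, and the Ckm fold change was larger without it. The slow fibre markers (3 of 4 in the table) came to 90.3 and 48.3 CPM in mutant hearts and 15.4 and 13.2 in the wild types. The part of fast or slow skeletal fibres in the levels of Ckm and Ak1 was not tested.

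An antisense row, AK020867, covers the end of Ckm (chromosome 7, 20002815 to 20006766). No source used here says that strand was used in counting, so its reads may be reads of Ckm. They came to 14.98% and 10.4% of the Ckm reads in mutant 1 and mutant 3, and to 19.7% and 15.3% in wild type 1 and wild type 2. The row did not differ between the groups either, at 251 ± 2.94 CPM in mutant hearts and 309 ± 125 in the wild types (SD, n = 2; adjusted p = 0.748). Its order of hearts was that of Ckb and Ak1, with wild type 1 highest, and not that of Ckm.

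Ckb, the brain form that is also found in vessels, nerve and the fetal heart (chromosome 12, 112907572 to 112910479), was one of the genes with a negative fold change, along with Ak1. It had 26.8 and 25.4 CPM in mutant 1 and mutant 3, and 34.95 and 20.8 CPM in wild type 1 and wild type 2. Both mutants lay between the wild types. The means were 26.1 ± 1.012 CPM in mutant hearts and 27.9 ± 9.99 in the wild types (SD, n = 2), a log2 fold change of -0.10 ± 0.28 (SE) with an edgeR adjusted p of 0.925. The sign hung on which wild type was kept: the log2 fold change was 0.33 without wild type 1 and -0.43 without wild type 2 (adjusted p = 0.228 and 0.0630; its alternatives ran from 0.0630 to 1.00).

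Markers of the cells that could carry Ckb outside the cardiomyocyte were measured beside it. The smooth muscle markers (6 of 6 read) summed to 182 and 190 CPM in mutant 1 and mutant 3, and to 248 and 225 CPM in wild type 1 and wild type 2. Neuron and Schwann cell markers were near 0 throughout, at 2.09 to 4.43 CPM in all. Fibroblast markers summed to 826 and 985 CPM in mutant hearts and 1050.5 and 854 in the wild types. Endothelial markers summed to 424 and 553 CPM in mutant 1 and mutant 3, and to 551 and 492 CPM in wild type 1 and wild type 2. The endothelial sum was thus nearly the same in mutant 3 and wild type 1. Pecam1, Kdr, Tie1 and Tek were highest in wild type 1, and Cdh5 and Emcn in mutant 3. Wild type 1 had the highest level of Ckb and the highest sums of smooth muscle and fibroblast markers, but single markers did not all follow. Of the smooth muscle markers, only Acta2 was highest in wild type 1 (136 CPM), and Smtn was at 77.5 CPM there against 102 in wild type 2. Col1a1, Col1a2 and Col3a1 were highest in wild type 1, while Pdgfra, Lum and Dcn were not. Dcn was at 416 and 425 CPM in mutant hearts and 291 and 279 in the wild types. The part of these cells in the Ckb level was not tested. In bulk tissue, fewer cells of a type and less RNA per cell cannot be told apart.

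The balance of the cytosolic forms is the usual readout of a shift towards the fetal pattern, and as a ratio within a library it needs no scaling between libraries. The nuclease step, which trims abundant transcripts such as Ckm, may still alter this ratio, and its part was not tested. Ckb took 1.56% (95% Clopper-Pearson interval 1.44 to 1.69) of the reads of Ckm and Ckb in mutant 1 and 1.05% (0.956 to 1.14) in mutant 3. In wild type 1 it took 1.70% (1.58 to 1.82) and in wild type 2 it took 1.42% (1.29 to 1.57); these intervals cover counting error only. The share was lowest in mutant 3, and mutant 1 lay between the wild types. The means were 1.30% ± 0.363 in mutant hearts and 1.56% ± 0.195 in the wild types (SD, n = 2), a difference of -0.26 percentage points. Single hearts set its size: the difference was -0.00242 points without mutant 3, -0.12 without wild type 1, -0.40 without wild type 2 and -0.52 without mutant 1. An exact two-sided permutation test over hearts gave p = 0.667, where 2 against 2 cannot give less than 0.333.

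The share of the mitochondrial form was nearly the same on average but spread widely in the mutants. Ckmt2 took 41.8% and 30.6% of the reads of Ckm and Ckmt2 in mutant 1 and mutant 3, and 35.6% and 36.7% in wild type 1 and wild type 2. The mutants thus lay on either side of both wild types, with means of 36.2% ± 7.93 and 36.2% ± 0.769 (SD, n = 2, exact permutation p = 1.00). This share was looked at after the values of the genes had been seen.

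Ak1 (chromosome 2, 32477265 to 32490572) was the steadiest of the 6 genes. It had 318 and 313 CPM in mutant 1 and mutant 3, and 366 and 289 CPM in wild type 1 and wild type 2, so that both mutants again lay between the wild types. The means were 316 ± 3.67 CPM in mutant hearts and 327 ± 54.6 in the wild types (SD, n = 2), a log2 fold change of -0.05 ± 0.23 (SE) with an edgeR adjusted p of 0.953. The ratio of the highest to the lowest heart was 1.27, against 1.45 to 1.68 for Ckm, Ckb, Ckmt2 and Slc6a8. Its log2 fold change was 0.13 without wild type 1, 0.00 without mutant 3 and -0.22 without wild type 2.

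**Figure D3:**
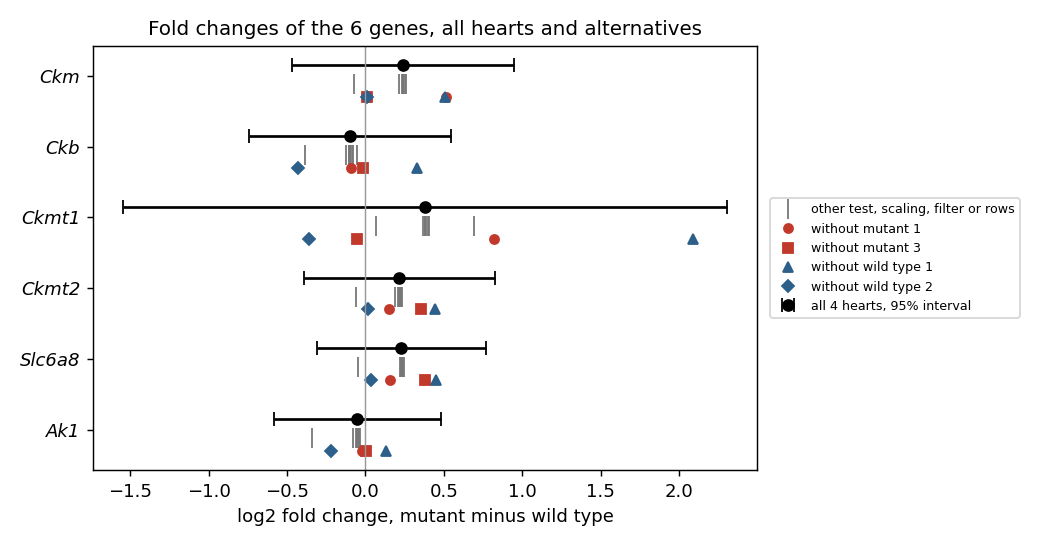
Log2 fold change, mutant minus wild type, of the 6 genes (x axis): black points with the 95% interval are the fit to all 4 hearts, grey ticks are other tests, scalings, filters or row sets, and coloured symbols leave out 1 heart. All 6 intervals cross 0, and leaving out wild type 1 or wild type 2 moves the values in opposite directions.

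The 6 genes shared 1 feature across hearts: wild type 2 was the lowest of the 4 hearts in 6 of 6, as it was in 30.6% of all tested rows. The wild types therefore differed from each other more than the group means did, with SDs wider than in the mutants for all but Ckm. The ratio of wild type 1 to wild type 2 was 1.27 for Ak1, 1.32 for Slc6a8, 1.34 for Ckmt2, 1.40 for Ckm and 1.68 for Ckb. Over the 7530 tested rows of at least 10 CPM, the median ratio of the higher to the lower heart was 1.27 between the wild types and 1.10 between the mutants. The higher heart was wild type 1 in 54.5% of all tested rows and in all 6 of these genes.

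The authors' deposited table compares single libraries, scaled by their total reads. Its ratio of wild type 1 to wild type 2 was 1.43 for Ckm, 1.72 for Ckb, 1.37 for Ckmt2, 1.35 for Slc6a8 and 1.30 for Ak1. Between the genotypes, the authors' deposited table gives Slc6a8 ratios of 0.978 and 1.32 for mutant 1 over wild type 1 and over wild type 2, and of 0.703 and 0.951 for mutant 3. For Ckm the same 4 ratios of the authors' deposited table were 0.739, 1.06, 0.878 and 1.26, and for Ckmt2 they were 0.958, 1.31, 0.699 and 0.956. For Ckb they were 0.677, 1.16, 0.537 and 0.920, and for Ak1 they were 0.768, 0.996, 0.633 and 0.820, again from the authors' deposited table. For these 5 genes every ratio to wild type 1 was below 1. Those to wild type 2 were both above 1 for Ckm, both below it for Ak1 and on either side for Ckb, Ckmt2 and Slc6a8. The p-values listed there compare pairs of libraries and not the genotypes.

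The rows most like each gene were found by the root mean square difference of centred log2 CPM over the 4 hearts, among 5260 autosomal rows with a gene symbol and at least 10 CPM. For Slc6a8 the nearest of all was Ckmt2, at a difference of 0.0107, then Ccndbp1 at 0.0175 and Hsbp1 at 0.0260. For Ckmt2, which was compared with autosomal rows only, Ccndbp1 (0.0240) and Timm10 (0.0261) were the nearest reported. The transporter and the mitochondrial kinase thus kept nearly 1 ratio in all 4 hearts. With 4 points and so many rows, close matches are common, and this is a description.

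The cytosolic genes had other neighbours. For Ckm they were Dnttip1 (0.0154), Cd300lg (0.0435) and Tpst2 (0.0496). For Ckb they were Tgfb1 (0.00482), Pofut2 (0.0138) and Scamp4 (0.0165), and for Ak1 Tmem59 (0.00182), Abcf2 (0.00959) and Setd3 (0.0160). Ckmt1, whose few reads make its pattern unsure, had none nearer than Mybpc2 at 0.503, followed by H2-Q7 (0.511) and Pcbd2 (0.540).

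The wider set of genes around the phosphate shuttle showed no call either. Of 52 listed genes, 45 were tested, and 0 passed an adjusted p of 0.05 in edgeR or in DESeq2. At an unadjusted p under 0.05, 1 gene was higher, where 6.49% of all tested rows were, and 4 were lower, where 4.38% were. Their groups did not overlap in 21 of 45 (46.7%), close to the 44.8% of all tested rows. The median log2 fold change was -0.10, with 21 genes above 0 and 24 below.

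Calls among these genes appeared only when a wild-type heart was left out, settings in which many rows were called. Without wild type 1, 5 of the 45 were called, where 12.2% of all tested rows were: Nme1, Nme4 and Guk1 were higher in the mutants, and Ampd3 and Nt5c1a were lower. Without wild type 2, 11 were called, where 22.0% of all tested rows were. Nme1 was then higher, and Ampd3, Nt5c1a, Slc25a25, Prkag1, Ak3l1, Ak3, Vdac3, Slc25a3, Guk1 and Stk11 were lower. Guk1, the guanylate kinase, thus turned its sign with the wild type that was kept. Guk1, Slc25a3 and Stk11 are named here after their values were seen.

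Among the other adenylate kinases, 3 of 8 were tested and their median was -0.36. Ak3l1 (now Ak4), which is mitochondrial, was at 15.3 ± 1.76 CPM in mutant hearts and 22.0 ± 2.98 in the wild types (SD, n = 2; adjusted p = 0.467), and the matrix GTP:AMP kinase Ak3 was at 47.0 ± 6.75 against 60.4 ± 8.62 CPM (adjusted p = 0.601). Ak3 lies over the rows AK016336 and Cdc37l1. Ak5, Ak7 and Ak8 had 0 to 2 reads in each heart.

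Of the genes that use or clear AMP, 10 of 11 were tested, with a median of 0.10. Ampd3, an AMP deaminase, was at 14.5 ± 0.798 CPM in mutant hearts and 25.6 ± 4.54 in the wild types (SD, n = 2), a log2 fold change of -0.82 ± 0.23 (SE) with an adjusted p of 0.282. Nt5c1a, the cytosolic AMP nucleotidase of muscle, was at 6.39 ± 2.51 against 11.9 ± 0.0559 CPM (adjusted p = 0.369), and both mutants lay below both wild types. Ampd1, the skeletal muscle AMP deaminase, had 11 and 1 reads in mutant hearts and 0 and 1 in the wild types and was not tested.

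All 10 genes of the AMP-activated protein kinase list, the sensor that AMP switches on, were tested, and their median was -0.19. The regulatory subunit gene Prkag1 was at 45.2 ± 4.44 CPM in mutant hearts and 67.0 ± 10.1 in the wild types (SD, n = 2; adjusted p = 0.411), and it lies over the row AK157795. Prkab2, a scaffold subunit gene of muscle, was at 32.0 ± 4.995 against 22.6 ± 0.0137 CPM (adjusted p = 0.470). Neither passed with all 4 hearts, and Prkab2 did not pass in any other setting either.

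At the mitochondrial membranes, 9 of 10 genes of nucleotide and phosphate exchange were tested, with a median of 0.07. Slc25a25, an ATP-magnesium and phosphate carrier, was at 3.55 ± 0.140 CPM in mutant hearts and 5.98 ± 0.988 in the wild types (SD, n = 2; adjusted p = 0.410), with 2 other rows over its span. The outer membrane channel gene Vdac3 was at 62.5 ± 1.07 against 83.8 ± 14.7 CPM (adjusted p = 0.533). The muscle translocator Slc25a4, which works beside mitochondrial creatine kinase and was named after its value was seen, had a log2 fold change of 0.40 (adjusted p = 0.647).

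The remaining nucleotide kinases held the smallest p of the whole set. Nme1, a nucleoside diphosphate kinase, was at 30.1 ± 2.49 CPM in mutant hearts and 16.2 ± 0.392 in the wild types (SD, n = 2), a log2 fold change of 0.90 ± 0.22 (SE) with an adjusted p of 0.220. Both mutants exceeded both wild types. Nme4, its mitochondrial relative, was at 3.25 ± 0.290 against 1.88 ± 0.807 CPM (adjusted p = 0.532). Nme1 and its neighbour Nme2 are close in sequence, so their reads may be split. The median of the 11 genes was 0.02.

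**Figure D4:**
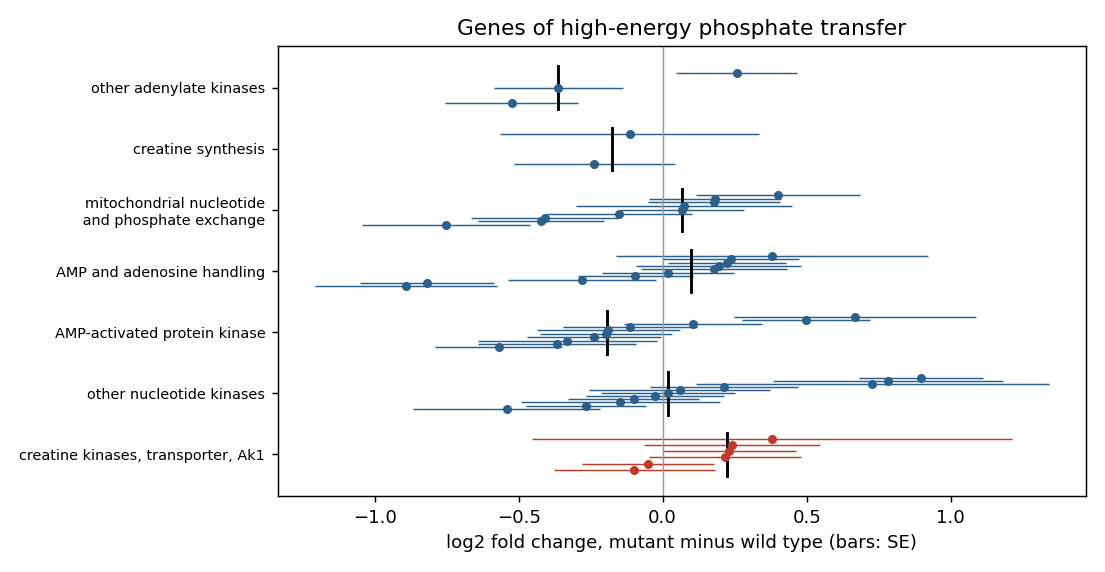
Log2 fold change, mutant minus wild type, with SE bars, for the 6 genes (red, bottom) and the 45 tested genes of 6 lists around them (blue), with a black line at the median of each list. The list medians run from -0.36 to 0.10, the 6 genes have a median of 0.22, and no gene shown passed an adjusted p of 0.05.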

How the data were processed

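Libraries of polyadenylated RNA from 4 right ventricles were normalised with a duplex-specific nuclease, per the labels' protocols. TopHat 1.2.0, Cufflinks and build mm9 are named per the submitters' processing notes; the counting rule, strand setting and annotation were not given in the sources used here. Read counts per row, as deposited, were the input. The authors' CPM equals reads scaled to the library total and was only checked. The authors' ratio (fold) and p-value of each pair of libraries were deposited too and are quoted where named.

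Counts were fitted over all rows with edgeR 4.0.16 (R 4.3.3): filterByExpr, TMM, glmQLFit and glmQLFTest, 4 libraries, no covariate, two-sided, Benjamini-Hochberg over 16128 rows. The fit was tested on simulated data. Levels are TMM-scaled CPM, SEs come from the F statistic, and intervals use its degrees of freedom. Starts are counted from 0 in the table (1 row starts at 0) and printed from 1. The labels name no litter, day or batch, so p-values measure the spread between these 4 samples. Alternatives were DESeq2 1.42.0, limma-voom (limma 3.58.1), 3 scalings, 2 filters, 2 sets of rows and leaving out each heart. With a heart left out, the one left in its group is assumed to vary like the other group.

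The 6 genes, the 6 lists around them and the marker lists were chosen with earlier results of these data known. Named from a list were called members, or otherwise the 2 of smallest p. Older symbols were matched by hand (Ak3l1 for Ak4), and Ak6 and Ak9 were not analysed here. Xist was found by its RefSeq accession. The near rows named for each gene follow a rule of 3 per gene, and 1 of them is not reported here.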

Additional observations from a re-analysis of the deposited data

How the results depend on the processing

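None of the 6 genes was called under any of 13 alternatives (12 for Ckmt1 and Slc6a8, which a stricter filter and the removal of X-linked rows left out). Scaling by total reads turned the sign of Ckm (-0.0703), Ckmt2 (-0.0628) and Slc6a8 (-0.0489), by a shift that all rows share. Leaving out 1 heart gave log2 fold changes from 0.01 to 0.51 for Ckm, -0.43 to 0.33 for Ckb, -0.36 to 2.09 for Ckmt1, 0.02 to 0.44 for Ckmt2, 0.04 to 0.45 for Slc6a8 and -0.22 to 0.13 for Ak1. Signs turned for Ckb without wild type 1 (0.33), for Ckmt1 without mutant 3 (-0.05) and without wild type 2 (-0.36), and for Ak1 without mutant 3 (0.000857) and without wild type 1 (0.13). The difference in the Ckb share ran from -0.516 to -0.00242 percentage points.

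Over all rows, 21 were called, against 203 by DESeq2, 156 with total reads, 317 with no filter, 3 without X, Y, mitochondrial and abundant rows, and 63 to 3675 with 1 heart left out. With total reads the calls were 76 higher and 80 lower, against 17 and 4. Of the 45 genes around the shuttle, 0 to 11 were called with 1 heart left out, 5 of them without wild type 1 and 11 without wild type 2, and 0 under every other alternative. The cause of these shifts was not tested. No paired analysis was possible because the groups share only the number 1. Counting error limits only Ckmt1.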

Other observations

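Other cell markers also differed between hearts. Atrial markers summed to 156 and 129 CPM in mutant 1 and mutant 3, and to 66.2 and 14.5 in wild type 1 and wild type 2. In the mutants most of this sum was Myl7 and Myl4. Upk3b went the other way, at 1.73 and 1.77 CPM in mutant 1 and mutant 3, and 3.52 and 5.23 in wild type 1 and wild type 2. Endothelial markers summed to 424 and 553 CPM in the mutants and to 551 and 492 in the wild types. Macrophage markers (5 of 6 in the table) summed to 56.9, 46.7, 63.2 and 44.5 CPM, red blood cell markers (3 of 5) to 2271, 3359, 1936 and 1447 CPM, and fat markers to 355, 502, 170 and 297 CPM, each in the order mutant 1, mutant 3, wild type 1, wild type 2. Most of the fat sum was Fabp4, at 322, 461, 133 and 274 CPM in that order. Few reads came from Adipoq (9, 8, 3 and 0), Plin (6, 9, 10 and 0) and Ucp1 (19, 0, 0 and 0). Sex-linked transcripts summed to 73.2, 68.0, 28.7 and 163 CPM in that order, a sum that mixes Y-linked genes with Xist and is not a level of either. Xist alone was at 2.99, 0.862, 28.4 and 162 CPM, and Ddx3y at 35.2, 33.4, 0.0891 and 0.101 CPM.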
